A study of Mus musculus with 2 samples.

Results

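The authors' list of differentially methylated regions between PDGFRα+ and CD137+ adipose progenitors held 34139 regions, 33566 of them on chromosomes 1 to 19. Of these, 1520 (4.53%) lay at an end of a protein-coding gene. A region was counted there when at least 1 bp of it fell between 2000 bp outside and 500 bp inside either end of a RefSeq protein-coding gene. With the strand of the gene taken from RefSeq's promoter table, 515 of the regions lay at a gene start only, 619 at a 3′ end only and 42 at the start of a gene and a 3′ end. The other 344 lay only at genes whose strand was not in that table.

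The list compared 2 whole-genome bisulfite libraries, 1 per group. A PDGFRα+ library (titled CD140) and a CD137+ library came from C57BL/6 mouse adipose progenitors that had been sorted on magnetic beads, grown in culture and put through adipogenic differentiation. Both had received DEX, the glucocorticoid dexamethasone, so that no untreated group entered the list. The labels name subcutaneous and visceral fat as sources for the study without saying which depot each library came from, nor how many animals were pooled. PDGFRα is the product of Pdgfra and CD137 that of Tnfrsf9. Neither gene had a region at an end, and the list, which holds differences only, gave no level from which the cell labels could be checked.

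Each region carried a signed score set by the authors, with no definition, unit or depth beside it. The order of subtraction behind the sign is not stated. The list is titled with the PDGFRα+ library before the CD137+ one, and under that order negative would stand for lower methylation in PDGFRα+ cells, so that the text keeps to negative and positive. The scores are used here only to describe and rank regions within the list. As each group was a single library, nothing could be set against a replicate spread and no difference was tested. The 95% Wilson intervals given with shares cover the counting of regions only, and regions are not independent replicates.

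DNA methylation in mammals sits mostly on cytosines followed by guanine, written CG here. Starts of many genes lie in stretches rich in CG that are usually unmethylated, and methylation there goes with silencing. Gene bodies and 3′ ends are usually methylated, in active genes as well. Large unmethylated domains over developmental transcription factor genes, such as the HOX clusters, differ between cell types by the body position they come from, fat depots included.

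For 94 regions the list overlapped the 300 bases of a gene's promoter in RefSeq's table (250 bases before to 50 after the start, GRCm38.p6, the assembly that mm10 names), 57 of them with a negative and 37 with a positive score. The promoters below are those of the 4 strongest regions of each sign that covered at least 100 of the 300 bases. They show which bases of a promoter the regions took in. Capitals mark the bases inside the region, and each is written 5′ to 3′ on the gene's own strand. The negative ones come first, from Hoxa5 (chr6:52204538-52204837, minus strand), Tmem267 (chr13:119487836-119488135, plus strand), 1700037H04Rik (chr2:131160032-131160331, minus strand) and Pik3cb (chr9:99140162-99140461, minus strand).
Hoxa5: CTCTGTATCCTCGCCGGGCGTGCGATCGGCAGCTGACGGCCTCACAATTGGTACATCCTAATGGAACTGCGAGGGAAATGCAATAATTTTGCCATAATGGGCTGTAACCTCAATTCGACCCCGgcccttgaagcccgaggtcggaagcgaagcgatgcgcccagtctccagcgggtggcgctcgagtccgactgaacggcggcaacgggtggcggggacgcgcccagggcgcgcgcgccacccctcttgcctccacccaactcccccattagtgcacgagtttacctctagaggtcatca
Tmem267: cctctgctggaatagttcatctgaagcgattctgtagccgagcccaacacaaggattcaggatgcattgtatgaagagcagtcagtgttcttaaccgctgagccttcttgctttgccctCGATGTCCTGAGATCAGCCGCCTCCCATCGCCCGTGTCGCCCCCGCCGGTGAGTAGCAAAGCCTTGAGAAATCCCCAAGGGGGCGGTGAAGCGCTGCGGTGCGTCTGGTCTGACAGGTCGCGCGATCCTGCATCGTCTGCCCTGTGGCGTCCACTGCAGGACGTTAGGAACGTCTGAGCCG
1700037H04Rik: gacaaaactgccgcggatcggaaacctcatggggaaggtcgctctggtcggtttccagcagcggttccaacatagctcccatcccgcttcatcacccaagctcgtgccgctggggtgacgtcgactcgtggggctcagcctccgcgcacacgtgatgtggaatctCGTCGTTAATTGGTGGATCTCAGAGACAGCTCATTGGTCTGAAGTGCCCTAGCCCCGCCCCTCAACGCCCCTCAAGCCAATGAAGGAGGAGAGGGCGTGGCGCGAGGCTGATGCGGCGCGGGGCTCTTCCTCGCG
Pik3cb: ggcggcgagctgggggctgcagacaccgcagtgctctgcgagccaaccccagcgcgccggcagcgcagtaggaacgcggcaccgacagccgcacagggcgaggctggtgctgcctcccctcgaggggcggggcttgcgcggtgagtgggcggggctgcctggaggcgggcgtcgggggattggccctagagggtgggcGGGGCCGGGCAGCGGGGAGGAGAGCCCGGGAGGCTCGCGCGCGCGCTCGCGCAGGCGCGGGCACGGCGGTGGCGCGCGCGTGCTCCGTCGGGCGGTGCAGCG

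The positive ones are from Rpl39l (chr16:10169978-10170277, plus strand), Chst13 (chr6:90325136-90325435, minus strand), Rcor3 (chr1:192137991-192138290, minus strand) and Ybx2 (chr11:69935649-69935948, plus strand).
Rpl39l: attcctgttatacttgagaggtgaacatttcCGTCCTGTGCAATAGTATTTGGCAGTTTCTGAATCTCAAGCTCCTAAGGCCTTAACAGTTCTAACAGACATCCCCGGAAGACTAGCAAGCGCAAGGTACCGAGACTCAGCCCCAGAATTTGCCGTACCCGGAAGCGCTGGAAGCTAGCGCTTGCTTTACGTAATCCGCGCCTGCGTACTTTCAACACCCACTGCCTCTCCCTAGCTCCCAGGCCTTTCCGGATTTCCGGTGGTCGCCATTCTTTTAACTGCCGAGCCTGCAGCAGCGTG
Chst13: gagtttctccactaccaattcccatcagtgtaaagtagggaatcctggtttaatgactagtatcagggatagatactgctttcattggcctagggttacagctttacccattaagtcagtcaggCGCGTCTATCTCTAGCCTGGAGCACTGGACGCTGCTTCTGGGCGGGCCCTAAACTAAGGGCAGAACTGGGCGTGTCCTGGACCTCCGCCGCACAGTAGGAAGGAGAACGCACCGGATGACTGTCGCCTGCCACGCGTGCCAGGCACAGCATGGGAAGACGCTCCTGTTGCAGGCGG
Rcor3: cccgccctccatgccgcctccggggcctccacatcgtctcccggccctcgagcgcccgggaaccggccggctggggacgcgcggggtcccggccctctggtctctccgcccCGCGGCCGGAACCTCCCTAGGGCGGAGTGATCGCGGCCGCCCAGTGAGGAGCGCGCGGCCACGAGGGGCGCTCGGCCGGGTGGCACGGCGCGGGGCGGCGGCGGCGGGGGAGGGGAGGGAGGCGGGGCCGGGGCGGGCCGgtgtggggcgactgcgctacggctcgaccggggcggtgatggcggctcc
Ybx2: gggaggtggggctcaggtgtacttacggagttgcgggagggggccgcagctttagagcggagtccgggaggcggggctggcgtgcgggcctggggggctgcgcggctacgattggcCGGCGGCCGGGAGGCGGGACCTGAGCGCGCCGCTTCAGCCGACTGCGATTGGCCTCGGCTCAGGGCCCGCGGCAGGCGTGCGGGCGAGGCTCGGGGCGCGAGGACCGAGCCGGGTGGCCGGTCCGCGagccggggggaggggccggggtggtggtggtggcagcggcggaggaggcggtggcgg

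Both signs included promoters dense in CG. The Pik3cb promoter held 44 CG in 300 bases, 22 of them in the 102 bases inside the region. The Rcor3 promoter held 47, of which 25 fell in the 140 bases inside. At Rpl39l, all 17 CG of the promoter lay inside the region, and the same was true of all 14 at Chst13. The Hoxa5 region took in only the 123 bases farthest upstream, with 9 of the 29 CG, and ran on away from the gene for most of its 2319 bp.

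Gene starts and gene 3′ ends differed in the sign of their regions. At starts, 294 regions were negative and 221 positive, so that 57.1% were negative (interval 52.8 to 61.3). At 3′ ends, 453 were negative and 166 positive, which is 73.2% (69.6 to 76.5). Regions away from the ends of protein-coding genes were 67.4% negative (21607 of 32046), and all autosomal regions 67.3% negative and 32.7% positive. The share at starts was thus below and the share at 3′ ends above that of the rest of the list, and neither interval reached 67.4%. The start and 3′ end shares moved apart from a gene-end total that was close to the background, at 65.6% (63.2 to 67.9). Of the 42 regions that touched a start and a 3′ end, 35 were negative, and 62.5% of those at genes of unknown strand were negative (57.3 to 67.5).

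**Figure D1:**
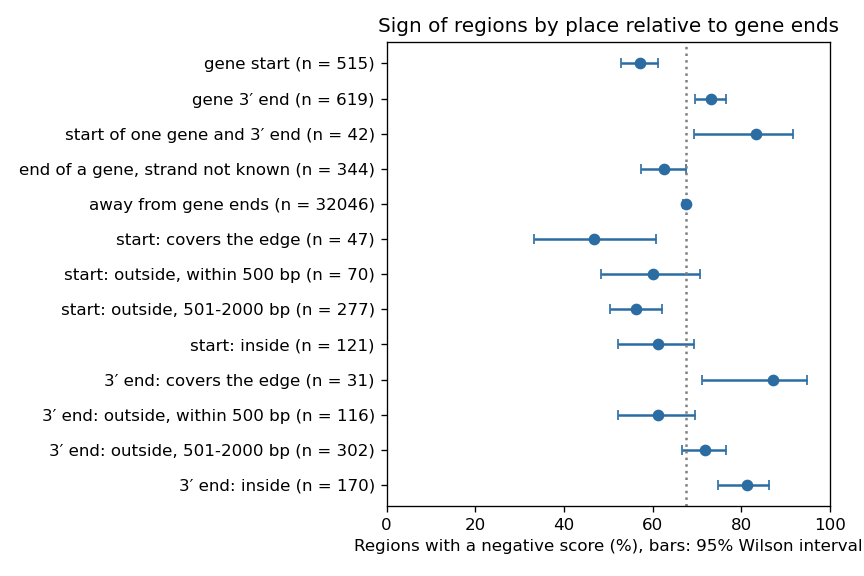
Percent of regions with a negative score by place relative to protein-coding genes, with 95% Wilson intervals that cover the counting of regions only. Starts sit at 57.1% and 3′ ends at 73.2%, on either side of the 67.4% of regions away from gene ends.

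Within the stretch, the share of negative regions also varied with position. Among the 47 regions that covered the annotated start itself, 46.8% were negative (33.3 to 60.8), while the 121 regions just inside the start were 61.2% negative (52.3 to 69.4). At the other end, 27 of the 31 regions that covered the 3′ edge were negative, or 87.1% (71.1 to 94.9). Regions just inside the 3′ end were 81.2% negative (74.6 to 86.3) and those within 500 bp outside it were 61.2% negative (52.1 to 69.6). These places leave out regions that covered the edge. Counted by midpoint, the shares were 79.7% (73.0 to 85.0) in the last 500 bp and 71.1% (62.7 to 78.2) in the 500 bp outside, and the intervals overlapped.

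Counted by the midpoint of each region along genes of known strand, the share of negative regions fell on approach to the start. From 5 to 2 kb upstream, 72.0% of 568 regions were negative (68.2 to 75.5), against 57.3% of 382 in the 2 kb before the start. It was 53.3% of 525 in the first 2 kb of the gene and 56.5% of 823 from 2 to 5 kb inside. The fall lay close to the border of the stretch used here: the 500 bp bin just outside it had 70.0% negative of 80 regions, and the first bin inside it had 54.9% of 91, with intervals that overlap (59.2 to 78.9 and 44.7 to 64.8). The lowest bin, from 1 to 1.5 kb inside the start, had 44.8% of 125. Along the 3′ end the share stayed between 68.5% and 71.4% in wide stretches within 5 kb on either side, apart from the last 500 bp of the gene, where it was 79.7% of 172 regions.

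**Figure D2:**
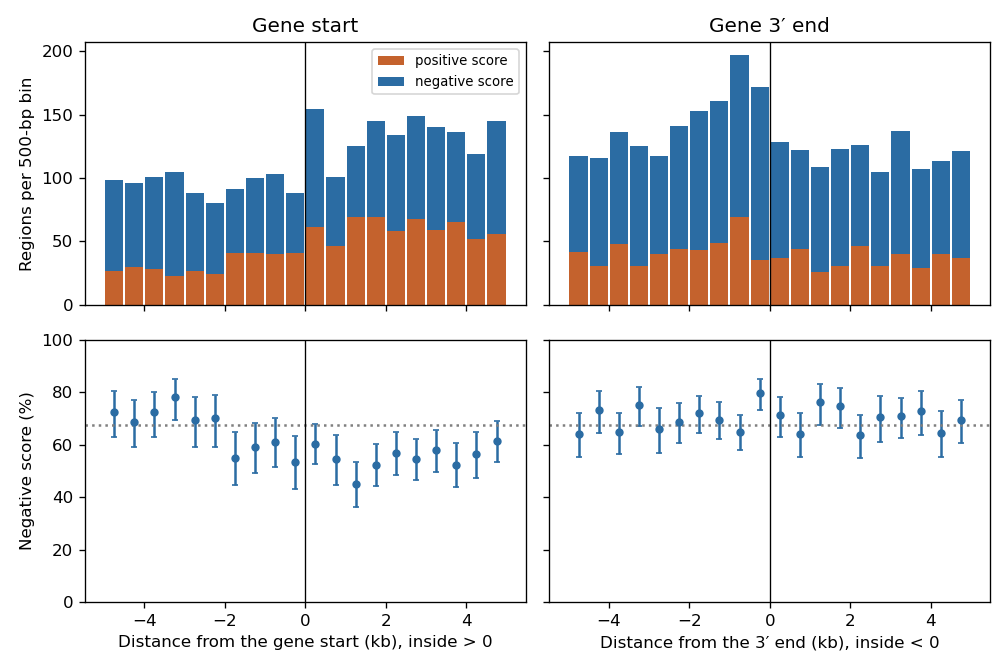
Number of regions and percent with a negative score in 500 bp bins of distance from the start and from the 3′ end of genes of known strand, from 5 kb outside to 5 kb inside. The share falls near the start (57.3% in the 2 kb before it) and is highest in the last 500 bp of the gene (79.7%).

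The scores at gene ends were larger than elsewhere in the list. An absolute score of 100 or more was reached by 378 of the 1520 regions, or 24.9% (22.8 to 27.1), against 15.2% of regions away from gene ends and 15.6% of all autosomal regions. The median absolute score was 56.2 at gene ends and 49.5 away from them, with near equal median widths of 114 and 112 bp. Divided by the width of the region, the median was 0.474 per bp at gene ends and 0.429 per bp away from them. By class it was 0.495 at starts, 0.439 at 3′ ends, 0.536 where both met and 0.506 at genes of unknown strand. The 3′ end median was thus close to that away from gene ends, and 20.8% of the 3′ end regions reached 100, against 26.6% at starts. Regions that covered the start stood highest, at a median of 0.809 per bp, followed by those just inside it at 0.724 per bp. Those wholly more than 500 bp before the start had 0.443 per bp. Of the 47 regions across a start, 55.3% reached 100 (41.2 to 68.6). Among the 20 gene-end regions with the highest score per bp, 14 lay at a start, 2 only at a 3′ end and 4 at genes of unknown strand. Of all 1520 gene-end regions, 557 touched a start, 619 lay only at a 3′ end and 344 only at genes of unknown strand. Of the 20, 14 were negative, near the 65.6% of all gene-end regions.

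Negative ones among these 20 were Ppp6r2 (score -272, 129 bp wide), a regulatory subunit of a protein phosphatase, Map3k9 (-184, 89 bp), a kinase of the JNK pathway, Purb (-198, 100 bp), a single-strand DNA-binding protein, and, with its strand unknown, Rest (-133, 76 bp), a repressor of neuronal genes. Positive ones were Zfp618 (143, 59 bp), Med13l (150, 85 bp), a subunit of the Mediator kinase module, and Ybx2 (220, 127 bp), a germ cell RNA-binding protein. The highest score per bp of all, 3.04, was that of a negative region of 162 bp inside the 3′ end of Hoxa7.

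At gene starts, the strongest negative score belonged to Hoxa5, a homeobox factor of body-axis patterning that marks fat depots. Its region scored -2115 over 2319 bp (chr6:52204715-52207033) and also ran across the 3′ end of the neighbouring Hoxa6. Tmem267, a gene for a membrane protein, followed with -2088 over 744 bp (chr13:119487955-119488698), a region that also lies 1835 bp past the 3′ end of 4833420G17Rik. These 2 stood well apart from the next ones. En1, a homeobox factor of hindbrain and skin patterning, had -551 at 1987 bp before its start, Klhdc8b had -420 and Hs3st3b1, a heparan sulfate sulfotransferase, had -342. Papolb, a testis poly(A) polymerase, had -283 across its start. Pik3cb, a catalytic subunit of phosphoinositide kinase, had -278 over 149 bp, also across its start.

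The 8 strongest positive start regions ranged from 287 to 412. Irs3, an insulin receptor substrate of rodent fat cells, scored 412 over 421 bp, 244 bp inside its start (chr5:137645050-137645470). Cntfr, the receptor subunit for ciliary neurotrophic factor, scored 409 over 558 bp that cover its start (chr4:41696581-41697138). Stc2, a secreted glycoprotein, had 362 at 1278 bp before the start, with 2 more positive regions of 68.1 and 63.3 nearer to it. Rpl39l, a ribosomal protein copy, had 354, Lhb, the beta subunit of luteinising hormone, 351, Chst13, a chondroitin sulfotransferase, 312, and Mvk, the mevalonate kinase of sterol synthesis, 287.

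At 3′ ends, 4 HOX genes of the Hoxa cluster were among the 8 strongest negative genes. Beside the region shared by Hoxa5 and Hoxa6, Hoxa5 had a second one of -652 over 1233 bp at 600 bp past its 3′ end, Hoxa7 had -492 and Hoxa3 had -477. Isyna1, the enzyme that makes inositol phosphate from glucose phosphate, and Ssbp4 shared a region of -494 at their converging 3′ ends (chr8:70597834-70598143), which lay 544 bp past the end of Isyna1 and 349 bp inside that of Ssbp4. The strongest positive 3′ region, 716 over 676 bp (chr8:84705020-84705695), was likewise shared by converging genes. It lay 304 bp past the end of Lyl1, a basic helix-loop-helix factor of blood cells, and 308 bp inside that of Nfix, a nuclear factor of muscle and brain development. Grik5, a kainate receptor subunit, followed with 711 over 464 bp, 412 bp inside its 3′ end (chr7:25010261-25010724). After these the positive scores fell to 278 at Fam43a, 267 at Foxc1, 242 at Col15a1, a collagen of basement membranes, and 218 at Wipf1, an actin regulator.

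Genes with no strand in the table included the strongest positive regions of the gene-end set, most of them at developmental transcription factors. Mab21l1, a gene of eye and head development, had the highest score at a gene end, 2903 over 2072 bp (chr3:55782347-55784418). Regions away from gene ends reached 4147 and -2569. Osr1, a zinc finger factor of mesenchyme and kidney, had 1484 over 1174 bp (chr12:9580358-9581531), Foxl1, a forkhead factor of mesenchyme, 1217 over 1346 bp (chr8:121127270-121128615), and Ebf2, a factor of brown and beige fat precursors, 642 over 725 bp (chr14:67233126-67233850). On the negative side, the genes of unknown strand were led by Scx, the tendon factor scleraxis, with -582 over 423 bp, and Irx5 with -541. Tbx15, a T-box factor of skeleton and fat depots, had -512 and Hoxa4 had -497. Mrap, a partner of the ACTH receptor that fat cells make, had -339 over 671 bp. All 4 of the positive regions and those of Scx and Mrap covered 1 annotated edge of the gene.

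In all, 1454 of 20665 autosomal protein-coding genes (7.04%) had a region at an end. A negative region was present at 977 genes (4.73%) and a positive one at 509 (2.46%), with 32 genes that had both, and at 362 genes (1.75%) a region reached an absolute score of 100. Most genes had 1 region (1291). Of the 32 genes with 3 or more, 16 had negative regions only, 11 positive only and 5 both. Neighbouring genes share some of these regions, as 125 regions lay at 2 genes and a single region of score 47.3 stood at 14 genes of the Pcdha cluster, which share their last exons. The density was 14.0 regions per Mb of the stretch around starts and 16.8 per Mb around 3′ ends.

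Runs of 1 sign over 1 gene were seen in several developmental regulators. Hlx, a homeobox gene of mesenchyme, had 5 regions, all negative, with scores of -265, -118, -113, -104 and -68.9. Hoxa10 also had 5, all negative, and Irx5 and Hoxc11 had 4 negative ones each. Nr2f2, a nuclear receptor of vessels and mesenchyme, had 3 of -261, -175 and -167. Prdm16, a regulator of brown fat, had 3 at its start, of -116, -68.5 and -31.3. Positive runs were those of Hoxc10 and Hoxc9 with 4 each, Lyl1 with 4, and Foxc2 (346, 298 and 141), Foxc1 (267, 264 and 74.8) and Foxd1 (161, 111 and 60.2) with 3 each.

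Separate regions at the start and at the 3′ end of the same gene were found for 40 genes. Both were negative in 23 genes and both positive in 3, Lyl1, Foxc1 and Cenps. In the whole set, 57.1% of regions at starts only and 73.2% of those at 3′ ends only were negative. In the other 14 of the 40 genes the ends had opposite signs, in either order. Fgfr4, a fibroblast growth factor receptor, had 54.6 at its start and -288 at its 3′ end, and Rcan1, an inhibitor of calcineurin, had 217 and -60.1. The tetraspanin gene Cd151 had 105 and -49.2, and Kdr, the main VEGF receptor of vessels, had 59.9 and -81.4. The reverse order, negative at the start and positive at the 3′ end, was that of 9230112D13Rik (-127 and 158) and Smim41 (-57.5 and 69.5). Tmem25, Tpm3, St6gal1 and Cd82 had the reverse order too. Where both genes had a known strand, starts shared by genes on opposite strands held 9 regions, 5 negative and 4 positive (55.6% negative, 26.7 to 81.1). Shared starts with a gene of unknown strand are not counted here. The strongest of the 9 were 177 between Ddit3, a stress-response factor, and Mbd6, then -130 between Rbbp4, a histone chaperone, and Zbtb8os.

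The HOX genes were the family most often present. Of 39 HOX genes, 22 (56.4%, interval 41.0 to 70.7) had a region at an end, against 7.04% of all protein-coding genes. Their 44 regions were 31 negative and 13 positive. That negative share of 70.5% lay near the 65.6% of all gene-end regions. In the Hoxa cluster, Hoxa3, Hoxa5, Hoxa6, Hoxa7, Hoxa10 and Hoxa11 had negative regions only, while Hoxa9 (87.4), which lies between Hoxa7 and Hoxa10, and Hoxa2 (51.0) had a single positive one each. Hoxa4, between Hoxa3 and Hoxa5, and Hoxb2 had 1 region of each sign. In the Hoxc cluster, Hoxc12 (-394) and Hoxc11 (-336) were negative and the next genes along, Hoxc10 (291), Hoxc9 (220) and Hoxc8 (193), positive. In the Hoxb cluster the strongest were negative, Hoxb6 (-275), Hoxb3 (-232) and Hoxb4 (-179). Neighbouring HOX genes share regions, so that these genes are not separate cases.

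Other developmental factor families varied in sign. Over all gene-end regions, 65.6% were negative and 24.9% reached an absolute score of 100. All 12 regions at forkhead genes were positive, at 5 of 41 genes: Foxl1, Foxc2, Foxc1, Foxd1 and Foxd2. Foxl1 and Foxc2 lie next to each other on chromosome 8. All 7 regions at nuclear receptor genes were negative and all 7 reached an absolute score of 100, at 5 of 45 genes: Nr2f2 (-261), the clock repressor Nr1d1 (-180), the steroidogenic factor Nr5a1 (-152), the glucocorticoid receptor gene Nr3c1 (-120) and Nr4a2 (-109). The KLF and SP zinc finger factors had 5 positive regions of 6, led by Klf2 (115), a factor of vessel wall and blood cells, and Klf6 (98.7), with Sp2 (-31.5) the negative one. Homeobox genes outside the HOX clusters (22 of 176, 12.5%) had 28 negative (73.7%) and 10 positive regions. Irx3 (-273) and Pitx1 (-227) were on the negative and Alx1 (225) and Cdx1 (219) on the positive side. T-box genes had a region at 6 of 15, with Tbx15 and Tbx1 (-201) negative and Tbx2 (194) and Tbx18 (119) positive. Their negative share of 66.7% was near that of all gene-end regions. Of the 19 regions at basic helix-loop-helix genes, 12 were positive, among them Bhlhe22 (229) and Bhlhe40 (204), while Scx, Hand2 (-274), a factor of heart and limb, and Tcf21 (-137), a factor of mesenchyme, were negative. Zinc finger genes with ZFP, ZBTB or ZSCAN names, a far larger family, had a region at 21 of 456 (4.61%), a smaller share than the 7.04% of all genes.

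**Figure D3:**
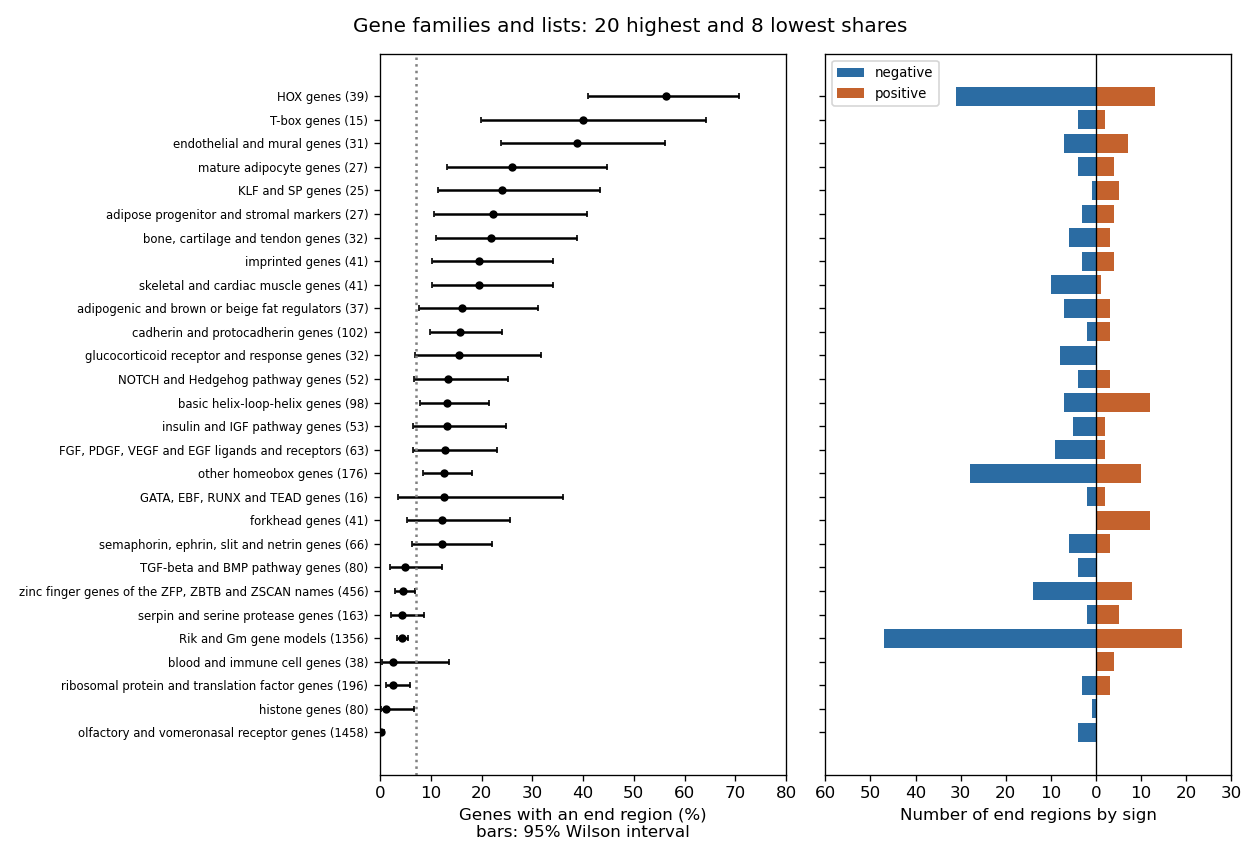
Negative and positive regions at the ends of genes of each family or list, counted as regions. Forkhead genes have 12 positive and 0 negative regions, and HOX genes 31 negative and 13 positive, beside 65.6% negative of all gene-end regions.

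Signalling families varied in the sign of their regions, beside the 65.6% negative of all gene-end regions, and several had few regions. Of all protein-coding genes, 7.04% had a region, and 24.9% of all gene-end regions reached an absolute score of 100. Chemokine, interleukin, interferon and TNF family genes had 24 negative and 7 positive regions at 30 of 265 genes (11.3%), and only 1 of them, at Ccl9 (-102), a myeloid cell chemokine, reached an absolute score of 100. Cxcl9 (83.4), a chemokine that draws T cells, and Ifngr1 (57.3), a receptor chain for interferon gamma, were positive. The insulin and IGF pathway had 5 negative (71.4%) and 2 positive regions at 7 of 53 genes (13.2%), and 5 of the 7 regions reached 100. Irs3 and the insulin receptor relative Insrr (135) were positive, and Pik3cb, Rictor (-130), a subunit of an mTOR complex, and Pik3cd (-127) negative. WNT pathway genes had 3 negative and 5 positive regions at 7 of 78 genes (8.97%), none of which reached 100. The strongest were at Wnt2 (69.1), a ligand, and Fzd4 (58.8), a receptor. The TGF-beta and BMP pathway had 4 regions at 4 of 80 genes (5%), all negative and all weak, led by Lefty2 (-47.9). MAP kinase and phosphatase genes had 16 negative and 5 positive regions, with Ppp6r2 and Map3k9 at the top and Ptprs (180) the strongest positive one.

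Transport and metabolic families varied around the 65.6% negative of all gene-end regions. Lipid metabolism genes had 8 negative regions of 14 (57.1%) and ion channel genes 14 of 24 (58.3%). Solute carriers had a region at 42 of 372 genes (11.3%, against 7.04% of all protein-coding genes), 33 negative of 46 (71.7%). Their 3′ end regions were negative in 21 of 24 cases against 8 of 13 at starts. The strongest solute carriers were Slco5a1 (340) and Slc30a6 (-284), a zinc transporter. Cytochrome P450, transferase and aldehyde dehydrogenase genes had 15 negative and 2 positive regions, led by Aldh18a1 (-205), an enzyme of proline synthesis. RNA processing genes had 13 negative and 1 positive, the exception being Cpsf7 (86.6) at a start it shares with Sdhaf2. Among genes of ubiquitin ligases and deubiquitinases, 6 of 17 regions at starts and 8 of 9 at 3′ ends were negative. That is the direction of the split in the whole set, of which they are a part. Not every family had it, as 6 of 10 start regions and 3 of 6 at 3′ ends were negative in chromatin and DNA methylation genes. Chromatin and DNA methylation genes had 13 negative and 11 positive regions, and the methyl-CpG-binding domain genes among them went both ways, with Mbd3 (-202) and Mbd1 (-113) negative and Mbd6 (177) and Mbd2 (130) positive. Olfactory and vomeronasal receptor genes were nearly absent, with a region at 4 of 1458 (0.274%). Ribosomal protein and translation factor genes had one at 5 of 196 (2.55%). Both shares stand beside the 7.04% of all protein-coding genes.

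Genes of fat cell biology had a region at an end more often than the 7.04% of all protein-coding genes, with lists too small for narrow intervals. These lists and those that follow were drawn by hand with earlier results of these data known. Their shares describe the chosen genes and are no test against all genes. Of 37 adipogenic and brown or beige regulators, 6 (16.2%, interval 7.65 to 31.1) had a region, 7 negative and 3 positive in all: Ebf2 (642), Tbx1 (-201), a beige precursor marker, Cox8b (-186), a respiratory chain subunit of brown fat and muscle, Prdm16 (-116), Hspb7 (-27.1) and Klf4 (23.5). Of 27 mature adipocyte genes, 7 (25.9%, 13.2 to 44.7) had one, 4 negative and 4 positive regions in all. None of these 8 reached 100, and 6 of the 10 regions at the regulators did, beside 24.9% of all gene-end regions. Both counts are small, and of the 10, Ebf2 and Prdm16 held 3 each. The 7 adipocyte genes were Fabp4 (55.6), the fatty acid binding protein, Aqp7 (51.8), a glycerol channel, Plin1 (51.4), a lipid droplet coat protein, Pck1 (-41.2), Cd36 (-35.2), a fatty acid receptor, Adipoq (32.3), the adiponectin gene, and Thrsp (-29.8). Of 27 progenitor and stromal genes, 6 (22.2%, 10.6 to 40.8) had one, with Col15a1 (242), Ackr3 (139), a chemokine scavenger receptor, and Wnt2 (69.1) positive and Eng (-115), a coreceptor for TGF-beta, and Itgb1 (-36.0) negative. The sixth, Cd24a, had a positive score of 29.7.

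All 8 regions at glucocorticoid receptor and response genes were negative, against 65.6% of all gene-end regions, and they lay at 5 of 32 genes (15.6%, interval 6.86 to 31.8, which includes the 7.04% of all genes). They were Nr3c1 (-120), Dusp1 (-84.1), a phosphatase that turns off MAP kinases, Errfi1 (-74.8), an inhibitor of EGF receptor signalling that had 3 regions, Pck1 (-41.2) and Hsd11b1 (-27.8), the enzyme that renews active glucocorticoid inside cells. Both libraries had received dexamethasone, so these are differences between 2 treated samples. The Hippo pathway, whose transcription factors are the TEAD proteins, had a weak region at 3 of 33 genes (9.09%): the cadherin gene Fat4 (47.7), Amotl1 (32.6) and Tead1 (-30.1), the gene in the title of the study.

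Lists of genes that mark other cell types differed in how often they had a region, beside the 7.04% of all genes. Of 31 endothelial and mural cell genes, 12 (38.7%, interval 23.7 to 56.2) had one, 7 negative and 7 positive, with Notch3 (-291), a receptor of mural cells, and Tek (163), the angiopoietin receptor of endothelium, the strongest of each sign. Skeletal and cardiac muscle genes had a region at 8 of 41 (19.5%), 10 negative and 1 positive, led by Hand2 and the myosin gene Myh8 (-128). Bone, cartilage and tendon genes had 6 negative and 3 positive regions at 7 of 32 genes (21.9%). Mesothelial and epithelial genes had 2 negative ones at 2 of 26 (7.69%, interval 2.14 to 24.1), Upk1b (-59.4) and Cldn4 (-54.6). Of 38 blood and immune cell genes only Lyl1 (2.63%, interval 0.466 to 13.5) had a region. The mesothelial share was thus close to that of all genes. The blood share was lower, with an interval that includes the 7.04% of all genes. The list has no level per library, so the part of a mix of cell types in these differences was not tested.

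Imprinted genes, which carry methylation on 1 parental copy, had 3 negative and 4 positive regions at 8 of 41 genes (19.5%, interval 10.2 to 34.0, against 7.04% of all genes). Peg10 and Sgce shared a region of -238 at their common imprinted start, whereas Peg12 (206) and the region shared by Peg3 and Usp29 (117) were positive. Of 42 germline genes, 3 (7.14%) had a region, a share near that of all genes. Tex14 had -126 at a start it shares with the repair gene Rad51c. The others were Syce3 (-112), of meiosis, and Dnmt3l (31.1), a partner of the DNA methyltransferases.

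A promoter sequence starting within 500 bp of the gene's annotated start was at hand for 14217 genes. Their 300 bases held a median of 14 CG (quartiles 4 to 25). Genes with only negative regions at the start also had a median of 14 CG (258 genes), and those with only positive ones 15.5 (170 genes). With an absolute score of 100 or more, the medians were 22 CG for the 77 genes with negative and 21 for the 43 genes with positive regions. Promoters were called CG-rich when their GC content was at least 50% and their CG count at least 0.6 of that expected from their bases, as 47.2% of all were. Of the strong groups, 66.2% of the negative and 69.8% of the positive genes had such a promoter. Strong regions of either sign thus had higher CG medians than all genes, and the medians of the signs lay close to each other.

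Regions were about as frequent at both kinds of promoter, at the start of 3.09% of genes with a CG-rich promoter and 2.92% of the rest. They were strong more often at the first, where 36.9% of 222 regions reached an absolute score of 100, against 45 of 236 at the others. Negative shares were 57.2% (50.6 to 63.5) and 63.1% (56.8 to 69.0), intervals that overlap. CG content differs between promoters with and without a strong region, and how far the authors' caller follows CG density was not tested.

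**Figure D4:**
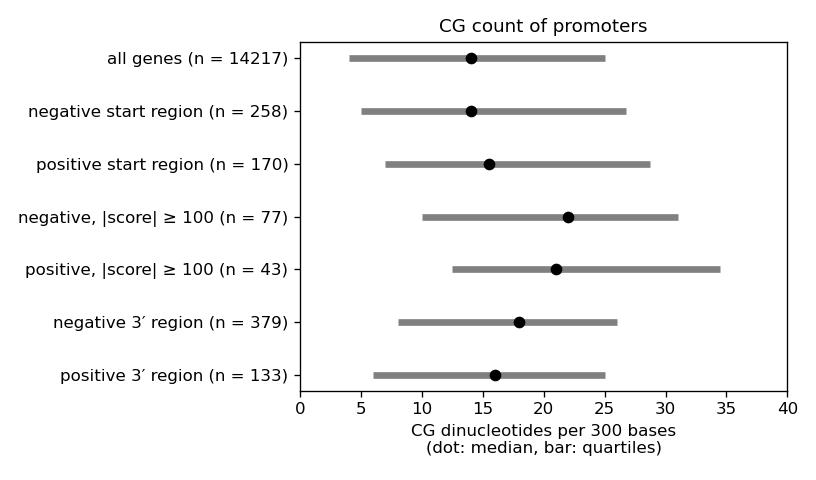
Number of CG in the 300-base RefSeq promoter for all genes and for genes with a start region, by sign and strength, as medians and quartiles. Genes with a region of absolute score 100 or more have medians of 22 (negative) and 21 (positive), above the 14 of all genes.

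Short motifs were counted on both strands of the same 300 bases, as letters only. The GC box itself holds a CG. The GC box (GGGCGG) was in 47.4% of all promoters, in 48.4% of those with only negative and in 59.4% of those with only positive start regions. The monomer of the glucocorticoid receptor site (AGAACA) was in 16.5%, 12.8% and 15.9% of them, and the TEAD site (GGAATG) in 13.1%, 12.4% and 11.8%. The CCAAT box (CCAAT) was in 39.6%, 35.7% and 40.6%. The TATA box (TATAAA) was in 14.1%, 10.1% and 11.8%, and the E box (CANNTG) in 68.7%, 68.2% and 69.4%. The shares changed in the smaller set of promoters that a region itself overlapped, 57 with a negative and 38 with a positive region. There the GC box was in 25 of the 57 and 19 of the 38, and the CCAAT box in 24.6% and 47.4%. In the printed promoters, Rcor3 had 7 GC boxes and Pik3cb 4, and Tmem267 had a single AGAACA. None of the 8 held GGAATG.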

How the data were processed

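Whole-genome bisulfite sequencing compared 1 PDGFRα+ and 1 CD137+ library. The authors deposited a list of differentially methylated regions, each with a position and a signed score. Per the submitters' processing notes, its coordinates are on mm10. For the aligner, region caller, thresholds and depth, the answer was not given in the sources used here. Only the sign and size of the score were used, and starts were read as BED starts and written 1-based.

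Genes came from a RefSeq table of GRCm38.p6, with 20665 protein-coding genes on chromosomes 1 to 19. Strand came from RefSeq's promoter table for 16457 of them (79.6%), 4208 being without it. Families were drawn by symbol and gene lists by hand; symbols that matched a family by spelling only were dropped after the matches were seen. The members and lists were chosen with earlier results of these data known.

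Genes were named by rule: the 8 strongest per sign at starts, 3′ ends and genes of unknown strand, list members with a region, the 3 strongest per sign of a family, and genes with the most regions. The printed promoters, the regions highest per bp, genes with opposite ends, shared starts, genes with 3 regions, the HOX genes beyond the strongest, and Foxd1, Foxd2, Nr5a1, Nr3c1, Nr4a2, Mbd1 and Mbd2 were named after their values were seen. No test was made, as each group had 1 library. Shares have 95% Wilson intervals. The overlap code was tested on 4000 simulated regions and 400 genes, and 0 classes differed from direct counting. Work used Python 3.11.15, pandas 2.3.3, numpy 2.4.6 and scipy 1.17.1, with matplotlib 3.10.9. Alternatives changed the stretch, overlap, coordinate reading, width, score and gene filters.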

Additional observations from a re-analysis of the deposited data

How the results depend on the processing

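Of 33 alternatives, 26 moved their result by less than its counting interval or 1.5 times. The number of gene-end regions was 864 with a stretch of 1000 bp outside to 250 bp inside and 2879 with 5000 bp outside, against 1520. The number of genes was 835 with the narrower stretch and 362 with an absolute score of 100 or more, against 1454. The negative share at gene ends was 61.9% among regions of absolute score 100 or more, against 65.6%. The median absolute score was 60.0 with the narrower stretch, and 0.474 per bp when divided by width, a different unit. The wider or narrower stretch and the score filter change how many regions are kept, and any other cause was not tested. The negative share ran from 55.5% to 59.1% at starts and from 71.5% to 75.7% at 3′ ends over the alternatives run for each. These included leaving out the HOX clusters, genes under 10 kb and regions at more than 1 gene, some of which were chosen after seeing the data. The stretch of 5000 bp outside was run for both ends together (67.2% negative) and not for starts or 3′ ends alone. By midpoint, 72.0% of the 568 regions from 5 to 2 kb before the start were negative. The lower share at starts thus depends on the stretch used here. No paired analysis was possible because each group has 1 library, and no replicate could be left out. Depth is unknown, so it sets no interval on a single region.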
